A study of Mus musculus with 6 samples.

Results

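The 53 genes of DNA replication and S phase described here were taken by name, as every spot for a transcript whose gene name on the array was one of 53 chosen symbols. All 53 were found among the 37074 gene names of the array, and they were represented by 106 probes. For each gene the brightest of its probes stood for the gene, and for each of the 53 it stood well above background on every one of the 6 arrays.

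Osteoclasts were grown from mouse bone marrow cells under RANKL, the cytokine that drives osteoclast formation, for 5 days. One group came from Ano1fl/fl mice, in which the gene of the chloride channel Ano1 is flanked by loxP sites and stays in place. The other came from Ctsk-Cre;Ano1fl/fl littermates, in which Cre recombinase driven by the cathepsin K gene is meant to remove it, so Cre is made once a cell expresses *Ctsk*. Both groups carried the floxed alleles and received RANKL, and each was measured on 3 one-colour Agilent arrays, which give the brightness of a single dye at each probe. The study's methods give 3 mice per genotype, and the labels number the replicates 1 to 3, so the p-values measure the spread between the cultures of these mice.

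Before a cell divides it copies its genome once. Origins are licensed in G1 when ORC, Cdc6 and Cdt1 load the ring-shaped MCM2-7 helicase, and in S phase the kinases and the activating factors turn the helicase on, polymerases copy the strands behind it, and the sliding clamp PCNA holds them on DNA. Many of these genes are switched on together by E2F transcription factors, and osteoclasts are known as cells that leave the cell cycle as their precursors fuse.

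Values are log2 of the processed signal after quantile normalization between the arrays, and a difference is the mean of the arrays labelled Ctsk-Cre;Ano1fl/fl minus that of the arrays labelled Ano1fl/fl. Each array had between 33480 and 34951 of 59305 transcript spots well above background and no saturated spot. On none of the arrays was the single *Ano1* probe well above background, so the labels could not be checked on the targeted gene. Every direction given here is by label, and an exchange of the labels of the groups would turn each lower gene into a higher one and each higher gene into a lower one. Some marker lists moved between the groups as well. The direction by label of the osteoclast markers is opposite to the one the study describes for osteoclasts of this genotype in other assays. Its quantitative PCR covered *NFATc1*, *Acp5*, *Ctsk* and *Mmp9*. The labels of the groups are therefore in doubt, and whether they were exchanged was not tested. By label, all 10 osteoclast markers were higher in the Ctsk-Cre;Ano1fl/fl group (limma adjusted p under 0.05), and their summed linear signal was 146416 to 158913 in the Ano1fl/fl group and 498923 to 562107 in the other. All 10 stromal markers were higher (summed signal 2082 to 3126 against 59234 to 99307), and all 6 granulocyte precursor markers were lower (128873 to 143064 against 10573 to 18516). In the same test 23.4% of all genes tested were higher and 29% were lower. Of 8 macrophage markers 1 was higher and 3 were lower. Of 6 tested B lineage markers 5 were higher and 1 was lower, and of 6 T and NK markers 2 were higher and 2 were lower. Of 8 erythroid markers 3 were tested and 2 were lower, while *Alas2* and *Klf1* stood well above background on none of the arrays. The part of any of these in the results below was not tested, and in RNA from a whole culture fewer cells of a type and less RNA per cell cannot be told apart.

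The replication genes were lower on the arrays labelled Ctsk-Cre;Ano1fl/fl. Of the 53, 43 were lower and 1 was higher at a limma adjusted p under 0.05, and 9 did not pass. The same test called 29% of all 20645 genes tested lower and 23.4% higher. The difference was below 0 for 52 of the 53, with a median of -0.75 on the log2 scale beside -0.06 for all genes tested, and it ran from -1.63 for *Tk1* to 0.30 for *Chaf1b*. In all, 15 of the 53 were lower by more than 2-fold and none was higher by more than 2-fold, beside 7.38% and 9.96% of all genes. The 3 arrays of one group lay wholly apart from the 3 of the other for 47 genes, 46 of them lower and 1 higher, beside 64% of all genes. A difference of more than 1.5-fold below was measured for 33 of the 53, and the share of all genes past that cut was not counted. The lower quartile of the differences was -1.04 for the 53 and -0.40 for all genes tested. Lower genes were found in each of the role groups described next.

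**Figure D1:**
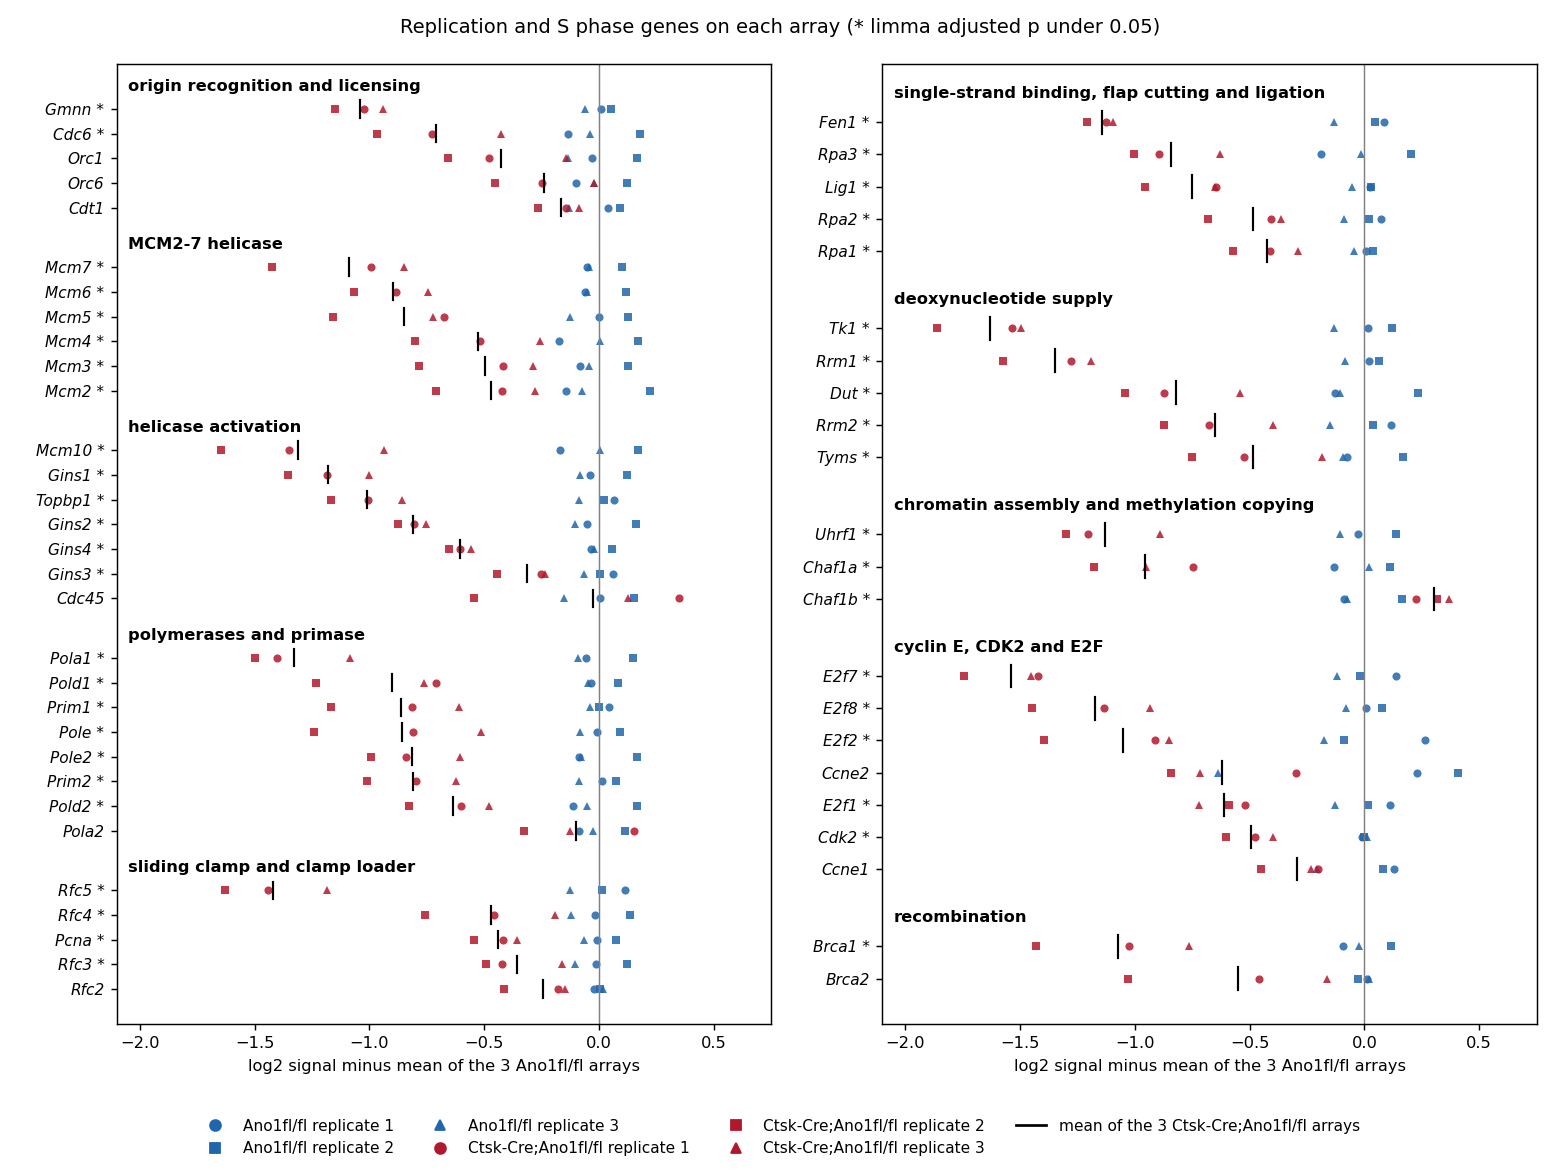
Log2 signal of each of the 53 genes on each of the 6 arrays, minus the mean of the 3 Ano1fl/fl arrays, grouped by role. Blue points are Ano1fl/fl arrays, red points Ctsk-Cre;Ano1fl/fl arrays, shapes mark the replicates, the black line is the Ctsk-Cre;Ano1fl/fl mean and an asterisk marks a limma adjusted p under 0.05; red lies to the left of blue for 46 genes without overlap and to the right for *Chaf1b*.

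Of the 5 genes of origin recognition and licensing 2 were lower, and the median difference was -0.43. *Gmnn* encodes geminin, which binds Cdt1 in S phase and blocks a second licensing. Its probe (mm9, chr13:24843852-24843911) read 14.42, 14.47 and 14.35 on the Ano1fl/fl arrays against 13.39, 13.26 and 13.47 on the Ctsk-Cre;Ano1fl/fl arrays. Every Ctsk-Cre;Ano1fl/fl array thus lay below every Ano1fl/fl array, and the difference was -1.04 (SE 0.08, limma adjusted p = 0.000195), a 2.06-fold lower level. *Cdc6*, the ATPase that recruits the helicase to origins, was lower by a difference of -0.71 (SE 0.16, limma adjusted p = 0.0109).

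The other licensing genes did not pass the test. *Cdt1*, the loading factor that geminin restrains, had a difference of -0.17 (SE 0.09, limma adjusted p = 0.170), and the groups overlapped. *Orc6*, a subunit of the origin recognition complex, had -0.24 (SE 0.13, limma adjusted p = 0.161), also with overlap. *Orc1*, the largest subunit of that complex, had -0.43 (SE 0.15, limma adjusted p = 0.0557) with groups that lay apart. It passed without Ctsk-Cre;Ano1fl/fl replicate 3 (difference -0.57, limma adjusted p = 0.0160), the array that lay closest to the Ano1fl/fl values, and did not without any one of the other 5 arrays (0.0710 to 0.159). In all it passed in 7 of 16 other settings, among them 75th percentile scaling and the mean of its probes (limma adjusted p = 0.0328 and 0.0127), so its call depended on the processing.

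All 6 subunits of the MCM2-7 helicase, the motor that unwinds DNA ahead of the fork, were lower. Their differences were -0.47 for *Mcm2*, -0.50 for *Mcm3*, -0.53 for *Mcm4*, -0.85 for *Mcm5*, -0.90 for *Mcm6* and -1.09 for *Mcm7*. The *Mcm7* probe (mm9, chr5:138605925-138605984) read 13.85, 14.00 and 13.86 on the Ano1fl/fl arrays against 12.91, 12.48 and 13.06 on the Ctsk-Cre;Ano1fl/fl arrays. The groups did not overlap, replicate 2 of the Ctsk-Cre;Ano1fl/fl group was the lowest, and the difference had an SE of 0.16 and a limma adjusted p of 0.00194. The calls on *Mcm2*, *Mcm3* and *Mcm4* were close to the threshold (limma adjusted p = 0.0379, 0.0276 and 0.0346). *Mcm2* and *Mcm4* lost it without Ano1fl/fl replicate 2 or 3 or Ctsk-Cre;Ano1fl/fl replicate 1 or 2 (0.0703 to 0.106 and 0.0765 to 0.107), and *Mcm3* lost it without any of the Ano1fl/fl arrays or Ctsk-Cre;Ano1fl/fl replicate 1 (0.0530 to 0.0889).

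Of the 7 genes that load onto or switch on the helicase, 6 were lower and the median difference was -0.81. *Mcm10*, which helps the activated helicase begin unwinding, read 12.41, 12.75 and 12.58 on the Ano1fl/fl arrays against 11.23, 10.93 and 11.64 on the Ctsk-Cre;Ano1fl/fl arrays (mm9, chr2:4911845-4911904). The groups did not overlap, and the difference was -1.31 (SE 0.19, limma adjusted p = 0.00216). The 4 genes of the GINS complex, which binds the helicase at the fork, differed in size. They were lower by -1.18 for *Gins1* (SE 0.11), -0.81 for *Gins2* (SE 0.09), -0.60 for *Gins4* (SE 0.07) and -0.31 for *Gins3* (SE 0.08). *Gins3* lost its call without Ano1fl/fl replicate 1 or 2 or Ctsk-Cre;Ano1fl/fl replicate 2 (limma adjusted p = 0.0225 with all arrays, 0.0558 to 0.0675 without). *Topbp1*, the scaffold that brings GINS to the helicase and also activates the checkpoint kinase ATR, was lower by -1.01 (SE 0.10, limma adjusted p = 0.000472).

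*Cdc45*, the third component of the active helicase beside MCM2-7 and GINS, did not pass. It read 8.54, 8.68 and 8.38 on the Ano1fl/fl arrays against 8.88, 7.99 and 8.66 on the Ctsk-Cre;Ano1fl/fl arrays, so that the latter covered the whole range of the former and more. Its difference was -0.02 (SE 0.24, limma adjusted p = 0.941), and it became 0.24 without Ctsk-Cre;Ano1fl/fl replicate 2 and 0.05 without Ano1fl/fl replicate 2. Its second probe gave -0.06 (SE 0.23).

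Of the 8 polymerase and primase genes 7 were lower, with a median of -0.83. *Pola1*, the catalytic subunit of the polymerase that starts every new strand, read 11.38, 11.59 and 11.35 on the Ano1fl/fl arrays against 10.04, 9.94 and 10.35 on the Ctsk-Cre;Ano1fl/fl arrays (mm9, chrX:90550189-90550248). All 3 of the latter lay about a whole log2 unit or more below the former, and the difference was -1.33 (SE 0.13, limma adjusted p = 0.000461). The primase genes *Prim1* and *Prim2*, which lay down the RNA primers, had -0.86 (SE 0.15) and -0.81 (SE 0.11). Of the lagging strand polymerase delta, *Pold1* had -0.90 (SE 0.15) and *Pold2* -0.64 (SE 0.12). Of the leading strand polymerase epsilon, *Pole* had -0.86 (SE 0.18) and *Pole2* -0.81 (SE 0.13). The limma adjusted p of these 6 genes was between 0.00182 and 0.00951. *Pole2* lost its call with the mean of its probes (-0.64, limma adjusted p = 0.0561), and its second probe gave -0.46 (SE 0.36) with overlapping groups.

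*Pola2*, the accessory subunit of the same polymerase as *Pola1*, depended on the probe read. Its brightest probe gave -0.10 (SE 0.14, limma adjusted p = 0.558) with overlapping groups. The other 3 probes were lower, by -0.95, -1.05 and -0.51, each at a limma adjusted p under 0.05 over the probes tested, the last of them well above background on only 2 of the 3 Ctsk-Cre;Ano1fl/fl arrays. Another probe became the brightest when Ctsk-Cre;Ano1fl/fl replicate 1 or 3 was left out (difference -0.92 in both cases, limma adjusted p = 0.00226 and 0.00188). Without replicate 2 the difference was 0.012. In all *Pola2* passed in 5 of 16 other settings.

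The sliding clamp and its loader had a median difference of -0.44, and 4 of 5 genes were lower. *Pcna* encodes the clamp, a ring that keeps the polymerases on the template, and is used widely as a mark of proliferating cells. It read 15.57, 15.66 and 15.52 on the Ano1fl/fl arrays against 15.17, 15.04 and 15.23 on the Ctsk-Cre;Ano1fl/fl arrays (mm9, chr2:132075420-132075557). The groups lay apart, but the step was small, at -0.44 (SE 0.08, limma adjusted p = 0.00507), a 1.36-fold lower level.

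Among the genes of the clamp loader, replication factor C, the step was uneven. *Rfc5* read 13.86, 13.76 and 13.62 on the Ano1fl/fl arrays against 12.31, 12.12 and 12.56 on the Ctsk-Cre;Ano1fl/fl arrays (mm9, chr5:117829154-117829213). The groups were separated by a whole log2 unit, and its difference was -1.42 (SE 0.13, limma adjusted p = 0.000368). *Rfc4* and *Rfc3* had -0.47 and -0.36 (limma adjusted p = 0.0454 and 0.0383), and *Rfc2* had -0.25 and did not pass (limma adjusted p = 0.0606), although its groups did not overlap. *Rfc2* passed in 5 of 16 other settings, the methods' t-test without adjustment among them (lowest adjusted p 0.0176, with 75th percentile scaling). *Rfc3* and *Rfc4* lost their calls without any one of the Ano1fl/fl arrays or Ctsk-Cre;Ano1fl/fl replicate 1 or 2 (limma adjusted p = 0.0524 to 0.117 and 0.0667 to 0.133).

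All 5 genes that shield, trim and join the new strands were lower, with a median of -0.75. *Fen1*, the nuclease that removes the flaps of Okazaki fragments, read 14.37, 14.33 and 14.15 on the Ano1fl/fl arrays against 13.16, 13.07 and 13.19 on the Ctsk-Cre;Ano1fl/fl arrays (mm9, chr19:10273675-10273734). The groups lay apart and the Ctsk-Cre;Ano1fl/fl values close together, and the difference of -1.14 (SE 0.08) had the lowest limma adjusted p of the 53 genes, 0.000156. *Lig1*, the ligase that seals the fragments, had -0.75 (SE 0.10, limma adjusted p = 0.00172). The genes of replication protein A, which coats single-stranded DNA, had -0.43 for *Rpa1* (SE 0.09), -0.48 for *Rpa2* (SE 0.11) and -0.84 for *Rpa3* (SE 0.14), with limma adjusted p between 0.00354 and 0.0103.

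The 5 genes of deoxynucleotide supply were all lower (median -0.82), and the largest fall of the 53 genes was among them. *Tk1*, the thymidine kinase of S phase cells, read 13.25, 13.35 and 13.10 on the Ano1fl/fl arrays against 11.70, 11.37 and 11.74 on the Ctsk-Cre;Ano1fl/fl arrays (mm9, chr11:117677105-117677164). No array of the one group came within a log2 unit of the other, and the difference was -1.63 (SE 0.12, limma adjusted p = 0.000178), a 3.10-fold lower level. The large subunit of ribonucleotide reductase, *Rrm1*, had -1.35 (SE 0.12, limma adjusted p = 0.00028), while its S phase partner *Rrm2* had -0.65 (SE 0.14, limma adjusted p = 0.00977). *Dut*, which removes dUTP, had -0.82 (SE 0.16, limma adjusted p = 0.0068). *Tyms*, the thymidylate synthase gene, had -0.49 (limma adjusted p = 0.0436) and lost its call without any one of the Ano1fl/fl arrays or Ctsk-Cre;Ano1fl/fl replicate 1 or 2 (0.0744 to 0.129).

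The genes that rebuild chromatin behind the fork went in both directions. *Uhrf1*, which recruits the maintenance DNA methyltransferase to newly copied DNA, read 13.36, 13.53 and 13.28 on the Ano1fl/fl arrays against 12.18, 12.09 and 12.50 on the Ctsk-Cre;Ano1fl/fl arrays (mm9, chr17:56462770-56462829). It was lower by -1.13 (SE 0.13, limma adjusted p = 0.000829), with groups well apart. *Chaf1a*, the large subunit of the histone chaperone CAF-1, was lower by -0.96 (SE 0.13, limma adjusted p = 0.0016).

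*Chaf1b*, the middle subunit of the same chaperone, was the one gene of the 53 that was higher. It read 12.80, 13.06 and 12.82 on the Ano1fl/fl arrays against 13.12, 13.21 and 13.26 on the Ctsk-Cre;Ano1fl/fl arrays (mm9, chr16:93906219-93906278). The groups lay apart by a narrow margin, and the difference was 0.30 (SE 0.10, limma adjusted p = 0.0372). The sign held in every one of 16 other settings (0.15 to 0.39), but the call was lost in 10 of them, among them those without Ano1fl/fl replicate 1 or 3 or any one of the Ctsk-Cre;Ano1fl/fl arrays (limma adjusted p = 0.0526 to 0.109). No array had the second *Chaf1b* probe well above background.

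Of the 7 genes of the switch into S phase, cyclin E, CDK2 and the E2F factors, 5 were lower and the median was -0.62. *E2f7*, an E2F that represses the E2F targets late in S phase, read 9.99, 9.83 and 9.73 on the Ano1fl/fl arrays against 8.43, 8.11 and 8.40 on the Ctsk-Cre;Ano1fl/fl arrays (mm9, chr10:110224331-110224390). The groups were over a log2 unit apart, with a difference of -1.54 (SE 0.12, limma adjusted p = 0.000179), a 2.91-fold lower level. Its partner repressor *E2f8* had -1.17 (SE 0.14, limma adjusted p = 0.000933). Of the activating E2F genes, *E2f2* had -1.05 (SE 0.19, limma adjusted p = 0.00436).

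*E2f1*, the best known activator, read 11.52, 11.42 and 11.28 on the Ano1fl/fl arrays against 10.89, 10.82 and 10.69 on the Ctsk-Cre;Ano1fl/fl arrays (mm9, chr2:154385798-154385857), a difference of -0.61 (SE 0.09, limma adjusted p = 0.00259). *Cdk2*, the kinase that fires origins with cyclin E or A, read 9.64, 9.65 and 9.66 against 9.17, 9.05 and 9.25 (mm9, chr10:128135658-128135717), a difference of -0.49 (SE 0.08, limma adjusted p = 0.00257). For both genes the groups lay apart.

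The cyclin E genes themselves did not pass. *Ccne1* read 12.15, 12.10 and 11.82 on the Ano1fl/fl arrays against 11.82, 11.57 and 11.79 on the Ctsk-Cre;Ano1fl/fl arrays (mm9, chr7:38882937-38882960), and Ano1fl/fl replicate 3 lay at the level of the other group. Its difference was -0.29 (SE 0.12, limma adjusted p = 0.0834), and it passed without that array (-0.40, limma adjusted p = 0.0343) but not without any one of the other 5 (0.101 to 0.213). *Ccne1* passed in 3 of 16 other settings in all. *Ccne2* read 5.49, 5.66 and 4.62 against 4.96, 4.41 and 4.54, near the dim end of the array, with a difference of -0.62 (SE 0.30, limma adjusted p = 0.128). Here too the array out of step was Ano1fl/fl replicate 3, without which the difference was -0.94 (limma adjusted p = 0.0135), and leaving out any one of the other 5 gave 0.109 to 0.318.

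The recombination genes *Brca1* and *Brca2* protect stalled forks and repair breaks with the sister strand as a template. *Brca1* read 10.66, 10.87 and 10.73 on the Ano1fl/fl arrays against 9.73, 9.32 and 9.99 on the Ctsk-Cre;Ano1fl/fl arrays (mm9, chr11:101350409-101350468). It was lower by -1.07 (SE 0.17, limma adjusted p = 0.0032), with no overlap between the groups. *Brca2* had -0.55 (SE 0.21, limma adjusted p = 0.0719) with groups that lay apart, and its Ctsk-Cre;Ano1fl/fl values spread widely, at 9.21, 8.64 and 9.50 against 9.67, 9.63 and 9.68. Without the highest of them, replicate 3, the difference was -0.74 (limma adjusted p = 0.0217), and without any one of the other 5 arrays it did not pass (0.0723 to 0.151). *Brca2* passed in 4 of 16 other settings in all, the mean of its probes among them.

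The other probes of the same genes mostly moved the same way. Of the 106 probes 100 were tested, 81 were lower and 1 was higher at a limma adjusted p under 0.05 over all 31848 probes tested, beside 30.6% and 21.8% of those probes, and 98 had a difference below 0. Of the 31 genes with several tested probes, 19 had all of them lower, and 46 of the 53 genes had at least 1 lower probe. No share over all genes is given beside these counts of genes. A gene with more probes can more easily have at least 1 that is lower. The 3 tested *Tk1* probes gave -1.63, -1.69 and -1.60, and the *Mcm10* probes -1.31 and -2.0. Where the probes of a gene disagreed, the value given above is that of the brightest alone. With the mean of all probes the difference was -0.82 for *Rfc5*, -1.09 for *E2f7* and -1.07 for *Rpa2*, whose second probe was well above background on no array.

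The *Brca2* probes other than the brightest were lower by -0.89 and -0.80, and those of *Orc1* by -0.58 and -1.02, so that both genes had lower probes although the brightest did not pass. The dimmest *Rfc5* probe had a difference of 0.11 (SE 0.07), with groups that lay apart, and did not pass, whereas its other probes were lower. An *E2f7* probe gave -0.08 (SE 0.19) beside -1.54 and -1.65. One *Brca1* probe was not well above background on the 3 Ctsk-Cre;Ano1fl/fl arrays and was at least 2.30-fold lower there (limma adjusted p = 0.00105 over the probes), taken against the lowest signal that was well above background on each array.

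**Figure D2:**
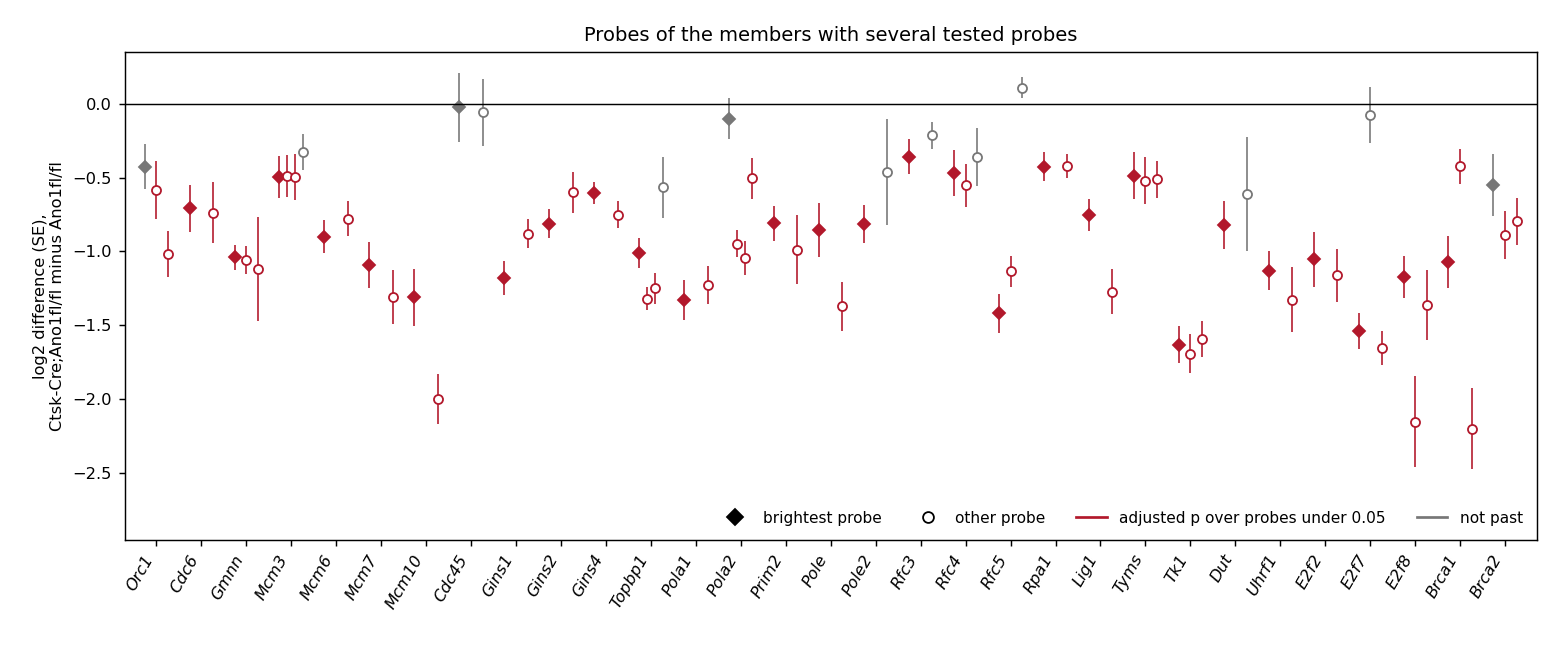
Log2 difference with its SE for every tested probe of the 31 genes with several tested probes, Ctsk-Cre;Ano1fl/fl minus Ano1fl/fl (n = 3 arrays each). Diamonds are the brightest probe of a gene, open circles the others, red marks a limma adjusted p under 0.05 over all probes and grey those not past it; the lowest *Brca1* point is the fitted difference of a probe that was not well above background in the Ctsk-Cre;Ano1fl/fl group, for which the text gives a bound instead, and nearly all points lie below 0.

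The arrays of one group moved together over the 53 genes. Relative to the Ano1fl/fl mean, the median gene lay at -0.68, -0.97 and -0.60 on Ctsk-Cre;Ano1fl/fl replicates 1, 2 and 3, and at -0.01, 0.11 and -0.08 on Ano1fl/fl replicates 1, 2 and 3. Replicate 2 of the Ctsk-Cre;Ano1fl/fl group was the lowest of its group for 51 of the 53 genes, and replicate 3 the highest for 43. The 53 genes share these arrays and are not independent of each other. The SD was larger in the Ctsk-Cre;Ano1fl/fl group for 44 of the 53 genes, beside 53% of all genes tested, and the median SD was 0.22 against 0.12. The same array, replicate 2, had the lowest median of the granulocyte precursor markers (-3.89, beside -3.12 and -3.04) and of the mitosis genes (-2.18, beside -1.77 and -1.56), and the highest of the osteoclast markers (3.22, beside 2.83 and 3.00). For the stromal markers replicate 2 lay between the other arrays of its group (5.32, 4.96 and 4.61 on replicates 1, 2 and 3). The same held for the macrophage markers (0.03, -0.04 and -0.23). The part of any of these lists in the low replication signal of replicate 2 was not tested. With that array left out the median difference of the 53 genes was -0.65.

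Other genes of the same processes were read in the same fit. Of 31 further replication factors 21 were lower and 3 were higher (median -0.59). *Dna2*, a nuclease and helicase of flap processing, had the largest fall, -1.80 (SE 0.12, limma adjusted p = 9.59e-05), and *Pold4*, the smallest subunit of polymerase delta, the largest rise, 0.75 (SE 0.14, limma adjusted p = 0.00498). Of 14 further genes of nucleotide synthesis 10 were lower and 1 was higher (median -0.52). The one higher gene was *Rrm2b*, the reductase subunit that serves cells outside S phase, at 0.70 (SE 0.08, limma adjusted p = 0.000761).

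Of 14 further genes of replication-coupled chromatin 8 were lower and 1 was higher (median -0.37), from *Asf1b*, a histone chaperone that hands histones to CAF-1, at -1.28 (SE 0.15, limma adjusted p = 0.000847) to *Mms22l*, a fork repair factor, at 0.43 (SE 0.12, limma adjusted p = 0.0232). Of 25 genes of the S phase checkpoint and recombination 19 were lower and 1 was higher (median -0.65), from *Rad54l*, a motor protein of homologous recombination, at -1.87 (SE 0.14, limma adjusted p = 0.000183) to *Rad51c* at 0.40 (SE 0.13, limma adjusted p = 0.0431). The calls on *Mms22l* and *Rad51c* were lost without Ano1fl/fl replicate 1 or 2 or Ctsk-Cre;Ano1fl/fl replicate 2 or 3 (limma adjusted p = 0.0520 to 0.0722 and 0.0815 to 0.128), and the mean of all probes gave 0.014 for *Mms22l* and -0.012 for *Rad51c*. Of 14 further E2F, DP, RB and DREAM genes 7 were lower and 2 were higher (median -0.47). *Rbl1*, the RB relative p107, had -1.20 (SE 0.11, limma adjusted p = 0.000391), and *E2f3* had 0.54 (SE 0.11, limma adjusted p = 0.00657).

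Genes of mitosis stood lower still. All 25 were lower and all 25 by more than 2-fold, with a median of -1.83 and a range of -2.69 for the kinetochore gene *Cenpf* (SE 0.18, limma adjusted p = 0.000114) to -1.29. Of the 53 replication genes, 6 were lower by more than the least lowered mitosis gene, and 17 of the 25 mitosis genes lay below *Tk1*, the lowest of the 53. The lists share the arrays and no test of the difference between them was run.

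**Figure D3:**
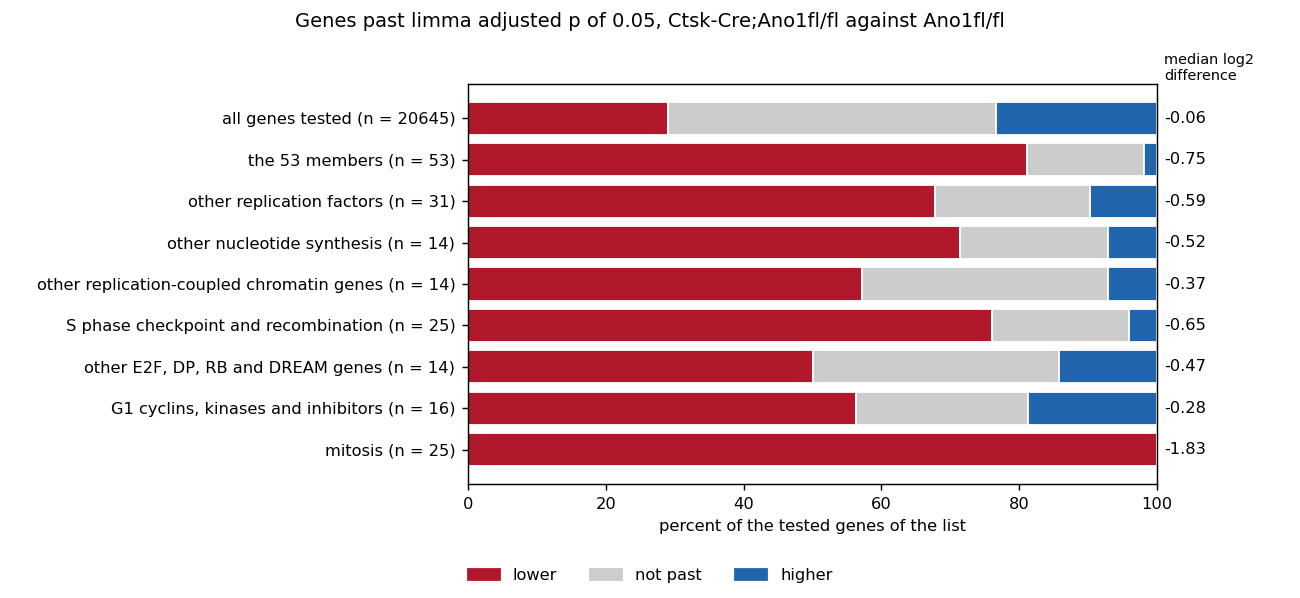
Share of the tested genes of each list that were lower (red), not past the test (grey) or higher (blue) on the Ctsk-Cre;Ano1fl/fl arrays at a limma adjusted p under 0.05, with the median log2 difference at the right. The 53 replication and S phase genes have 43 lower genes and a median of -0.75, all genes tested a median of -0.06, and the mitosis list 25 lower genes of 25.

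Since many of these genes are known E2F targets, the sequences around their starts were read for the words that E2F factors bind. RefSeq promoters on GRCm38.p6, 300 bases from 250 before to 50 after the start, were given for 44 of the 53 genes by symbol. A promoter was said to hold an E2F word when it had TTTGGCGC, TTTCCCGC, TTTGCCGC or TTTCGCGC on either strand. Overlapping words were joined into one site. Of the 44 genes 19 had such a word (43.2%), beside 704 of the 27025 genes with a promoter (2.60%) and 475 of the 11612 genes that were also tested on the arrays (4.09%). The word TTTCCCGC was in 9 of the 44, TTTCGCGC in 8, TTTGGCGC in 7 and TTTGCCGC in none.

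Lower genes and genes not past the test both held such words. Of the 36 lower genes with a promoter 16 held a word (44.4%), and of the other 8 genes 3 did (37.5%). The CCAAT box, read by the factor NF-Y on either strand, was in 27 of the 44 (61.4%, beside 41.1% of all genes and 42.4% of those tested), and the word TTTGAA, the core of the element through which mitotic genes are repressed outside G2, was in 7 (15.9%, beside 20.2% of all genes and 15.2% of those tested). The 21 mitosis genes with a promoter had an E2F word in 1, CCAAT in 18 (85.7%) and TTTGAA in 15 (71.4%). A match is a description of the letters and not a bound site, and no match says only that these letters are not in this window.

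The 200 bases before the start are shown for *Mcm6*, which held the most words, and for *Pola1*, which had the largest fall after *E2f7* among the 19 genes with a word, 5′ to 3′ on the strand of the gene, with E2F words in capitals. They lie at chr1:128359706-128359905 and chrX:93632156-93632355 of GRCm38.p6, both on the minus strand. The first *Mcm6* site holds overlapping words on both strands.
Mcm6: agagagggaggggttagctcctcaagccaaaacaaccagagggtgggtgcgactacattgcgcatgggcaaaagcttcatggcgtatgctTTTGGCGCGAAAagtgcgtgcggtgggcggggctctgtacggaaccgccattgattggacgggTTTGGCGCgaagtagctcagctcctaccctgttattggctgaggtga
Pola1: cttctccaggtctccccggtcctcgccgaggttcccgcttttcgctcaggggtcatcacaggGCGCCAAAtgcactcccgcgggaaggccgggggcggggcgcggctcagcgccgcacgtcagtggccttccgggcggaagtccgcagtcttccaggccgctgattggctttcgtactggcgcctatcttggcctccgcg

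To set the sites of other genes side by side, the E2F word is given below with 10 bases on either side, on the strand of the gene, for 9 lower genes and for the 3 genes that did not pass. The lower genes are *Mcm5* (chr8:75109346-75109377), *Mcm7* (chr5:138172031-138172058), *Cdc6* (chr11:98908003-98908030), *Topbp1* (chr9:103305188-103305215), *Pole2* (chr12:69228163-69228190), *Lig1* (chr7:13278842-13278869), *Uhrf1* (chr17:56304118-56304145), *Cdk2* (chr10:128705174-128705201) and *E2f7* (chr10:110745231-110745258). For *Mcm7* the first of 2 sites is shown, and the other began 16 bases after the start. Those not past are *Orc1* (chr4:108579417-108579444), *Cdt1* (chr8:122568037-122568064) and *Brca2* (chr5:150522443-150522470).
Mcm5: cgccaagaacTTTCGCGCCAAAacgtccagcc
Mcm7: atttcgaaccGCGGGAAAcagggtgtcc
Cdc6: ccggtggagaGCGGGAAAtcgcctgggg
Topbp1: cgctcggttgGCGCGAAAgtcggttccc
Pole2: gtcggcggtgGCGCCAAAtcgcgaacat
Lig1: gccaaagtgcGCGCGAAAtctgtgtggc
Uhrf1: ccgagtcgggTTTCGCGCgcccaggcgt
Cdk2: accaggaactGCGGGAAAgttgtgcagc
E2f7: ccgcgtccccGCGGGAAAcgctcccgcg
Orc1: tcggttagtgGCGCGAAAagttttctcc
Cdt1: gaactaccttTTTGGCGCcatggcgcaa
Brca2: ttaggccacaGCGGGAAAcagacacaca

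The 19 genes held 23 sites. Of these, 13 began within 100 bases of the start on either side and 9 began at or after it. The sites of *E2f7*, *Uhrf1* and *Pola1*, the 3 genes of the 19 with the largest falls, began 198, 185 and 138 bases before the start, and the site of *Cdt1*, with the smallest difference, began 32 bases after it. Of the next largest falls, *Mcm7* (-1.09) had sites 165 bases before and 16 after the start, and *E2f2* (-1.05) had one 39 after. The sites of *Brca2*, not past the test, and *Cdk2* (-0.49) began 168 and 140 bases before it. No order of the differences by position was tested.

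**Figure D4:**
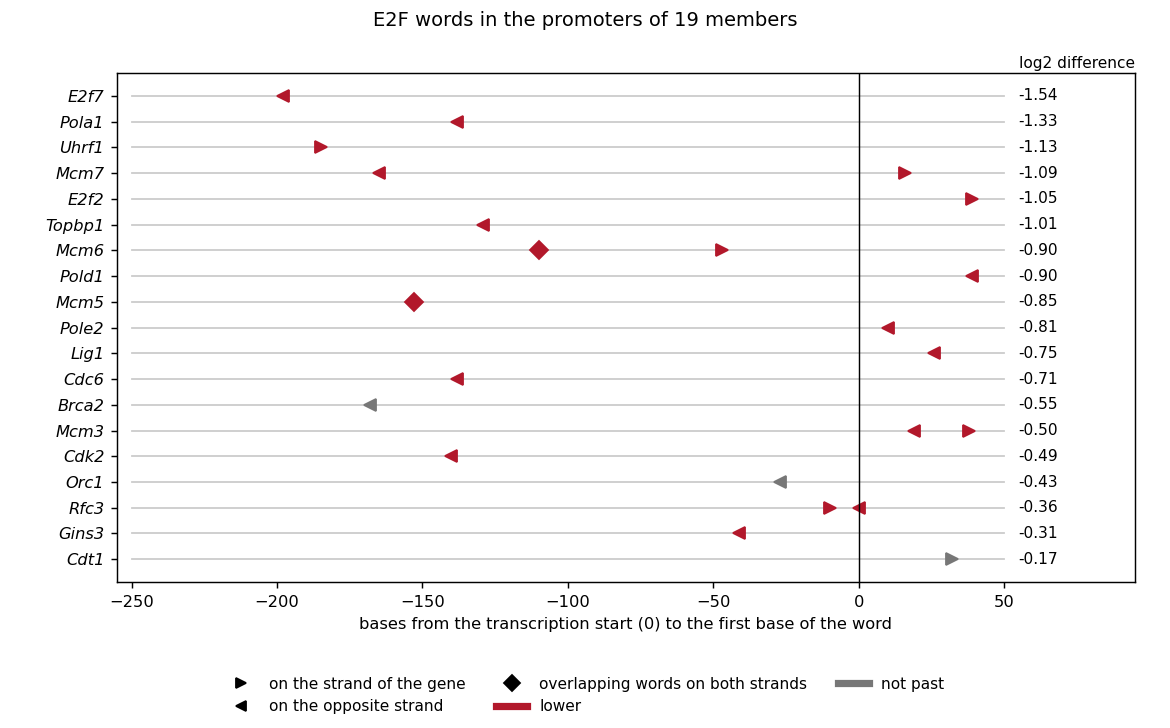
Position of the E2F words in the promoters of the 19 genes that hold one, in bases from the transcription start, with genes ordered by their log2 difference (at the right). Triangles point along the strand of the word, diamonds are overlapping words on both strands, red genes were lower at a limma adjusted p under 0.05 and the 3 grey ones were not past it; words lie on both sides of the start in lower and in grey genes.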

How the data were processed

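RNA of 3 Ano1fl/fl and 3 Ctsk-Cre;Ano1fl/fl cultures was hybridised to one-colour Agilent arrays lying on 1 slide and read in 1 scan. Per the file headers the authors' intensities were made with Agilent Feature Extraction 10.7.1.1, which subtracts background and trends within an array. The deposited series matrix held the median spot intensities of the same arrays (largest difference 0). Marks of 0 or 1 set by the scanner software for background, saturation and outliers were used as deposited.

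Outlier and control spots were left out, log2 processed signals were quantile normalized, and spots of a probe were averaged with limma 3.58.1 in R 4.3.3 (the package data.table in version 1.17.8). In all, 14 of 56605 probes lacked a value. A gene was represented by its brightest probe. It entered the test if 1 group or both had that probe well above background throughout, that is on 3 of 3 arrays (20645 genes), where a share of 0.5 of a probe's spots had to carry the mark. Groups were compared with lmFit and eBayes, and p-values were adjusted by the Benjamini-Hochberg method over all genes tested. The scripts were tested on simulated data. With 3 arrays against 3 an exact permutation test cannot go below p = 0.1, so none was run, and the number of arrays limits the precision. Members, role groups and lists were chosen with earlier results of these data known. Values on every array are given for the gene with the largest rise and fall past the test in each role and for *Pcna*, *Ccne1*, *E2f1* and *Cdk2*. Those of *Cdc45*, *Ccne2* and *Brca2* were added after their values were seen. The largest rise and fall are named from each further list, except for 1 gene that is not reported here. Symbols are those of the array, except 1 list symbol matched by its accession. Alternatives were 75th percentile scaling, normexp with an offset of 50, the series matrix, other filters on dim probes, the mean of all probes, single probes, the methods' t-test, limma with trend and robust settings, a replicate block, a fold of 1.5 and leaving out each array. Promoters were read with Python 3.11.15 and pandas 2.3.3.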

Additional observations from a re-analysis of the deposited data

How the results depend on the processing

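The count of 43 lower genes was 36 to 46 when each array was left out in turn, and the median difference was -0.85 to -0.65. In those fits the count of higher genes was 0 to 1, that of genes more than 2-fold lower 10 to 16, and none was more than 2-fold higher. Of all genes, 4111 to 4375 were higher and 4897 to 5238 lower. The count of higher genes was 0 with 75th percentile scaling and without a filter on dim probes. It was also 0 with the mean of all probes and with the methods' t-test after Benjamini-Hochberg adjustment. At 1.5-fold 33 of the 53 genes were lower, with no share of all genes counted at that cut. Of the 43 lower genes, 35 were lower in each of 16 settings, 37 by the methods' t-test after adjustment and 41 by it unadjusted. With 75th percentile scaling all 43 stayed lower and the median of all genes moved from -0.06 to -0.12. The difference of *Cdc45* reversed to 0.0040 with the series matrix, to 0.05 without Ano1fl/fl replicate 2 and to 0.24 without Ctsk-Cre;Ano1fl/fl replicate 2. Leaving out each array gave it -0.21 to 0.24. That of *Pola2* ran from -0.92 to 0.012 in those fits and reversed without Ctsk-Cre;Ano1fl/fl replicate 2, and that of *Rad51c* reversed to -0.012 with the mean of all probes. The causes were not tested, except that for *Pola2* another probe is the brightest in some settings.

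Deviations of same-numbered arrays from their group means correlated at 0.0044, -0.06 and -0.08 across genes, so no shared effect of the replicate number was seen. With so few arrays these values cannot settle whether same-numbered cultures were paired, for example as littermates. With the replicate number as a block, 36 of the 43 genes were lower and 0 were higher.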

Other observations

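Of 16 G1 cyclins, kinases and inhibitors 9 were lower and 3 were higher on the Ctsk-Cre;Ano1fl/fl arrays at a limma adjusted p under 0.05 (median -0.28), beside 29% and 23.4% of all genes tested. The higher genes all passed 2-fold. *Cdkn2b*, the inhibitor p15 of the cyclin D kinases, read 7.99, 7.32 and 7.15 on the Ano1fl/fl arrays against 10.29, 10.30 and 9.87 on the Ctsk-Cre;Ano1fl/fl arrays, a difference of 2.67 (SE 0.24, limma adjusted p = 0.000338). Its neighbour *Cdkn2a*, which encodes p16 and ARF, had 2.20 (SE 0.25, limma adjusted p = 0.000795), and the cyclin *Ccnd2* had 2.01 (SE 0.26, limma adjusted p = 0.00131).

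*Ccnd1*, another D-type cyclin, read 11.41, 12.50 and 12.02 against 9.61, 9.55 and 9.41, the largest fall of that list, at -2.45 (SE 0.26, limma adjusted p = 0.000634). *Ccna2*, the cyclin of S phase and G2, had -2.13 (SE 0.18, limma adjusted p = 0.000257), and *Cdkn2c*, the inhibitor p18, had -1.69 (SE 0.14, limma adjusted p = 0.000273). *Cdkn1a*, which encodes p21, had 0.09 and *Myc* 0.27, and neither passed (limma adjusted p = 0.45 and 0.33). *Cdkn2a*, *Ccnd2*, *Ccnd3*, *Ccna2*, *Cdkn2c*, *Cdkn1a* and *Myc* were named after their values were seen. The third D-type cyclin, *Ccnd3*, had -0.45 (SE 0.07, limma adjusted p = 0.0022), so of the D-type cyclins *Ccnd1* and *Ccnd3* were lower and *Ccnd2* was higher, with no overlap between the groups for any of them. Between the same groups the median difference was 4.96 for the stromal markers, 3.02 for the osteoclast markers and -3.38 for the granulocyte precursor markers. The part of any of these cell types in the differences of the G1 genes was not tested.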
